A study of Rattus norvegicus with 32 samples.

Results

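The genes described here are the adrenergic receptors of the rat heart and the kinases that switch those receptors off: Adrb1, Adrb3, Adra1a, Adra1b, Adra1d, Adra2a, Adra2b, Adrbk1 and Grk5. A probe was taken as a member when it was not a control spot and its gene name on the array, in either of the 2 annotation versions that the scanner files carry, was one of these symbols. This gave 14 probes of 9 genes, of 45598 probes and 18703 gene symbols on the array. Adrbk1 was named Adrbk1 in the files of the males and Grk2 in those of the females, and both names stand for the same probe.

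RNA of the left ventricle of Wistar rats, 9 to 12 weeks old, was measured on 32 single-colour Agilent arrays, 20 h after surgery. Sepsis was induced by cecal ligation and puncture (CLP), in which the cecum is tied and pierced so that gut bacteria leak into the abdomen. Sham rats had surgery without CLP, and the CLP plus landiolol rats received landiolol, a short-acting blocker selective for the beta1 receptor, at 0.1 mg/kg/min from 1 h after CLP. The CLP rats received saline at 10 ml/kg/h in its place, and the volume infused was similar in all groups. There were 5 sham, 5 CLP and 6 CLP plus landiolol rats of each sex, 1 array per rat, and all had buprenorphine for pain. All hearts had been imaged in vivo and then perfused in isolation before they were frozen, so each value comes from a heart that had been through both. No group received landiolol without CLP.

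Noradrenaline and adrenaline act on the heart through receptors that couple to G proteins. Beta receptors couple mainly to Gs, which raises cyclic AMP and with it the rate and force of the beat. Alpha1 receptors couple to Gq and phospholipase C in cardiomyocytes and in the smooth muscle of vessels, and alpha2 receptors couple to Gi and restrain the release of noradrenaline from sympathetic nerves. G protein-coupled receptor kinases phosphorylate receptors that are in use, and arrestins then bind them and end the signal. GRK2, the product of Adrbk1, and GRK5 are the best known of these kinases in the heart.

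Levels are given as log2 intensities, quantile-normalised within each sex, so that a difference of 1 is a doubling. They cannot be set against each other between probes, because probes bind with different strength. Within a sex, a probe entered the test if some group had 80% or more of its arrays well above background for it. Of the 14 member probes, 12 passed in females and 11 in males, standing for 7 of the 9 genes in each sex. Each gene is represented by 1 main probe, the one with the highest mean level over the 32 arrays. Differences were tested with limma across all probes kept, and a gene was called at an adjusted p below 0.01 against sham and below 0.05 between CLP plus landiolol and CLP. The replicates are separate rats, and the number of arrays limits the precision. RNA of whole tissue was measured, so fewer cells of a type and less RNA per cell cannot be told apart.

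Arrays of one sex correlated with each other at 0.961 to 0.988 over all probes with a value on all 32 arrays, before the background filter, and none had saturated spots. The 8 cardiomyocyte markers examined, among them Myh6, Tnnt2 and Actc1, were well above background on all 32 arrays. None was called in any comparison, where 0.115% to 9.34% of all tested genes were called. In CLP against sham, Actc1 gave -0.69 in males (adjusted p = 0.0308) and -0.72 in females (adjusted p = 0.0952). The median log2 fold change of the 8 markers there was -0.03 in males and 0.02 in females. The sexes lay on different slides, and on the female slides all sham arrays lay in row 1 and all CLP plus landiolol arrays in row 2.

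Of the printed probes, that of Adrb1 is shown because landiolol acts on its product, and that of Adrbk1 because its name differed between the annotations. Both are 60 bases long, and their positions on the rn4 build are chr1:263026996-263027055 on the plus strand and chr1:206873729-206873788 on the minus strand.
Adrb1: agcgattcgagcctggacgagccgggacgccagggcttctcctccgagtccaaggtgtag
Adrbk1: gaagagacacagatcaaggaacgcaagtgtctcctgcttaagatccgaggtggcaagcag

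In CLP against sham, the alpha1 receptor genes Adra1b and Adra1d were lower and the kinase gene Grk5 was higher in both sexes. Adra1a was called lower on its main probe in males and on a neighbouring probe in both sexes. Adra1d fell 6.55-fold in males and 8.30-fold in females, Adra1b fell 3.30-fold and 3.04-fold, and Grk5 rose 1.87-fold and 1.70-fold. Adrb1, the main beta receptor of the ventricle, did not pass the test in either sex, nor did Adrbk1. In males 4 of 7 tested member genes were called, 1 higher and 3 lower, where 9.34% of the 13270 tested genes were called, 4.26% higher and 5.08% lower. In females 3 of 7 were called, 1 higher and 2 lower, where 4.30% of the 13068 tested genes were called, 2.19% higher and 2.11% lower. The median log2 fold change over the 7 members was -0.33 in males and -0.18 in females, against -0.02 over all tested genes in each sex.

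**Figure D1:**
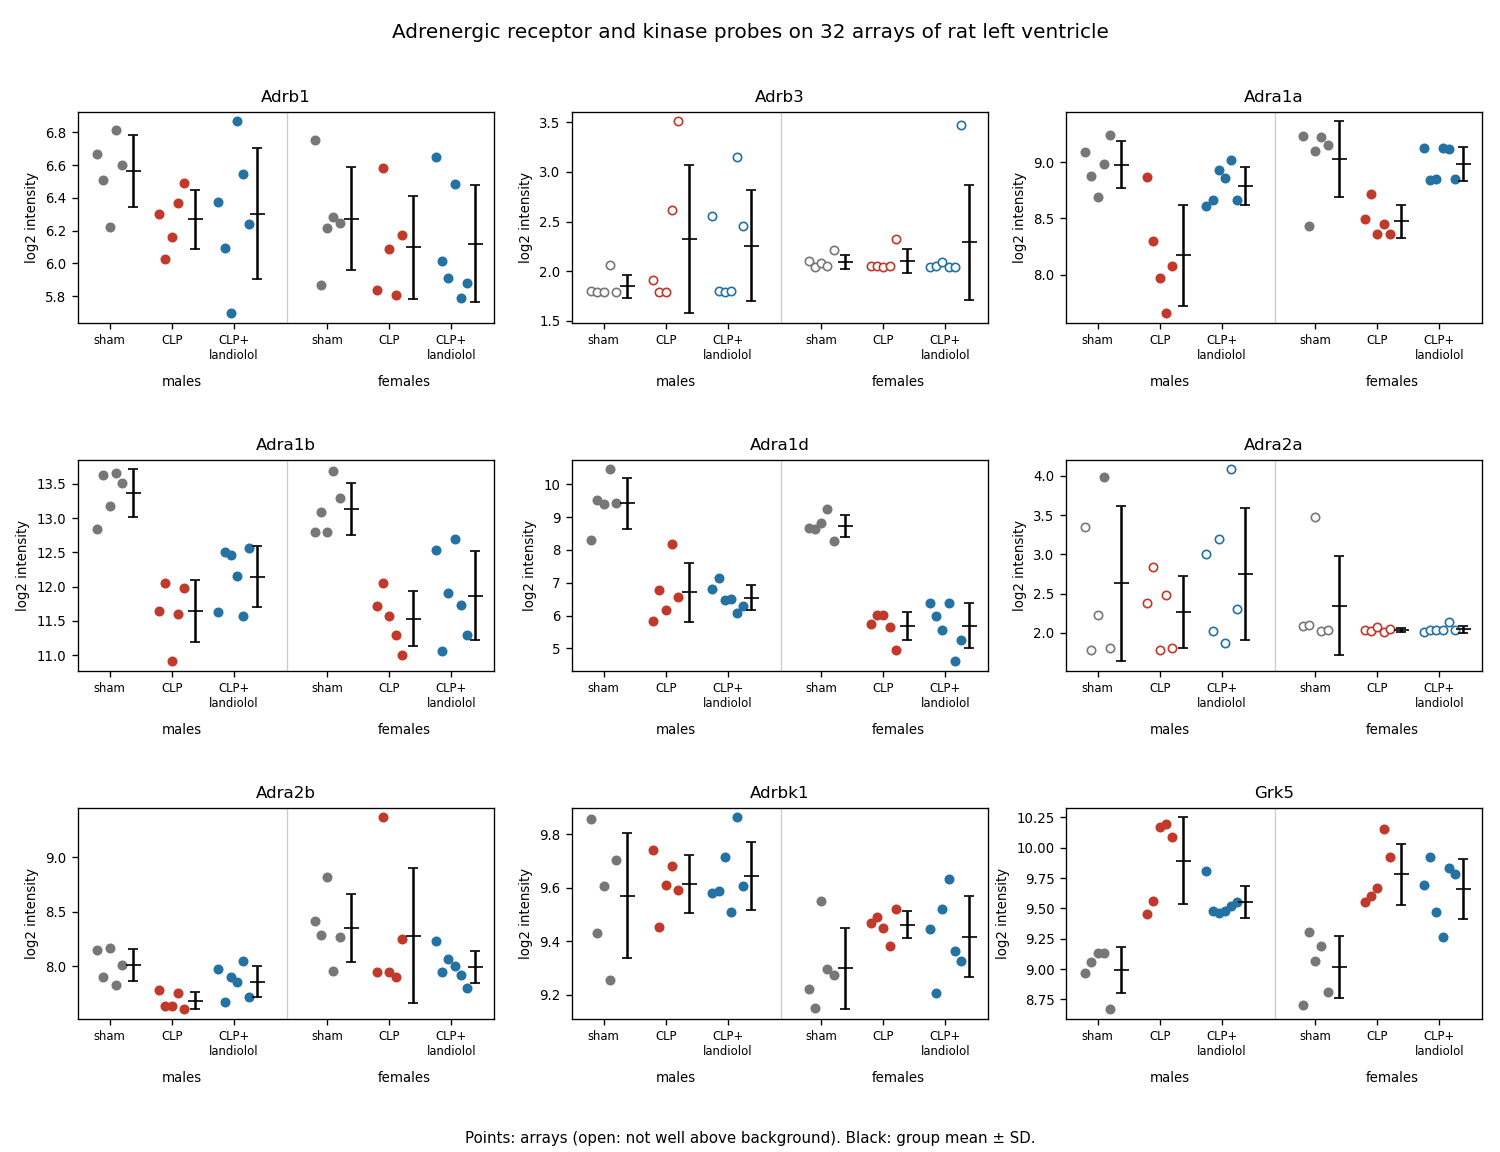
Log2 intensity of the main probe of each of the 9 genes on the 32 arrays, by sex and group, with every array as a point (open where the probe was not well above background) and the group mean with its SD in black. Adra1b and Adra1d lie lower in every CLP array than in every sham array of the same sex, Grk5 lies higher, and Adrb3 was well above background on none of the 32 arrays.

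Adra1d encodes the alpha1D receptor, which is known for the contraction of arteries. On the male sham arrays its log2 level was 8.29, 9.52, 9.40, 10.45 and 9.43, and on the male CLP arrays 5.85, 6.79, 6.16, 8.17 and 6.57. The female sham arrays read 8.65, 8.63, 8.83, 9.24 and 8.28, and the female CLP arrays 5.74, 6.004, 6.01, 5.65 and 4.96. In both sexes the highest CLP array lay below the lowest sham array, by a small margin in males, where CLP array 4 stood above the other CLP arrays. The difference was -2.71 in males (SE 0.41, 95% CI -3.58 to -1.85, adjusted p = 0.000366) and -3.05 in females (SE 0.31, 95% CI -3.72 to -2.39, adjusted p = 4.33e-05). Both calls stood in each of the 10 fits that left out 1 array of the pair of groups. Groups did not overlap for 14.3% of the tested genes in males and for 9.86% in females.

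Adra1b encodes the alpha1B receptor, one of the alpha1 subtypes of cardiomyocytes. Its level on the male sham arrays was 12.84, 13.62, 13.18, 13.66 and 13.52, against 11.65, 12.05, 10.91, 11.61 and 11.98 on the male CLP arrays. In females the sham arrays read 12.80, 13.10, 12.79, 13.69 and 13.30, and the CLP arrays 11.73, 12.05, 11.57, 11.30 and 10.9995. Sham and CLP arrays were apart in both sexes, and every CLP array was at 12.05 or less. The difference was -1.72 in males (SE 0.25, adjusted p = 0.000312) and -1.60 in females (SE 0.30, adjusted p = 0.00353). The male call stood in each of the 10 fits without 1 array. The female call was lost in 3 of 10, without sham array 4, sham array 5 or CLP array 4, where the adjusted p reached 0.0108 and the difference stayed between -1.73 and -1.47.

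Markers of smooth muscle, the cell type in which alpha1 receptors narrow vessels, and of other stromal cells were read on the same arrays. The summed level given here is the log2 of the summed intensities of the markers, so it follows the brightest marker most. For Myh11, Acta2, Tagln, Cnn1 and Smtn it ran from 14.44 to 15.07 on male sham arrays and from 13.19 to 13.91 on male CLP arrays, without overlap. The brightest of these was Smtn, with a mean log2 level of 13.4, and the next was Myh11 at 10.9. In females it ran from 13.65 to 14.63 and from 13.17 to 13.89. Of the 5 markers, Smtn alone was called in males (log2 fold change -1.33, adjusted p = 7.66e-05). None was called in females, where Smtn gave -0.86 (adjusted p = 0.0244). Cnn1 was well above background on 21 of 32 arrays. Of 5 fibroblast markers, Col1a1 (-2.11), Col1a2 (-1.34) and Lum (-1.89) were called lower in males. None was called in females, where Col1a1, Col1a2 and Lum gave -1.61, -0.95 and -1.725 (adjusted p = 0.0239, 0.0780 and 0.0815). Dcn had a value of 0.87 in males (adjusted p = 0.0467) and 0.77 in females (adjusted p = 0.0752). The summed level of the fibroblast markers overlapped between the groups, at 15.88 to 16.36 on male sham and 15.38 to 16.33 on male CLP arrays, and at 15.39 to 15.98 and 15.27 to 16.26 in females. This sum follows Dcn most, whose mean log2 level was 15.2. Of 5 pericyte markers, 0 were called in males, where Rgs5, Kcnj8 and Abcc9 gave -0.69, -0.72 and -0.49, and Rgs5 was called lower in females (-0.91). Their summed level ran from 14.08 to 14.42 on male sham and 13.75 to 14.21 on male CLP arrays, and from 13.99 to 14.12 and 13.61 to 14.07 in females, with overlap in both sexes. Of 6 endothelial markers, 0 were called in either sex, where 9.34% and 4.30% of all tested genes were called in males and females. The part of smooth muscle, fibroblast or pericyte content in the fall of Adra1d and Adra1b was not tested.

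Adra1a, the gene of the alpha1A receptor, was measured by 3 probes, which did not all move alike. Its main probe read 9.09, 8.88, 8.69, 8.98 and 9.24 on male sham arrays and 8.86, 8.30, 7.97, 7.66 and 8.07 on male CLP arrays, so that CLP array 1 lay within the sham range. The female sham arrays read 9.23, 8.43, 9.10, 9.22 and 9.15, and the CLP arrays 8.495, 8.71, 8.36, 8.45 and 8.36, with sham array 2 among the CLP values. The difference was -0.80 in males (SE 0.18, adjusted p = 0.00734) and -0.55 in females (SE 0.15, adjusted p = 0.0336), called in males. The test of the difference between the sexes did not pass (females minus males 0.24, 95% CI -0.24 to 0.73, adjusted p = 0.9999). The male call was lost in 8 of the 10 fits without 1 array, all but those without sham array 3 or CLP array 1, with an adjusted p of at most 0.0219. In females, leaving out sham array 2 gave -0.70 with an adjusted p of 0.00340.

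The neighbouring Adra1a probe, 191 bases upstream on chromosome 15 of rn4, fell with it. It read 7.64, 7.49, 7.39, 7.46 and 7.65 on male sham arrays and 7.28, 6.76, 6.38, 6.12 and 6.58 on male CLP arrays, and the groups did not overlap in either sex. Its difference was -0.90 in males (SE 0.19, adjusted p = 0.00447) and -0.73 in females (SE 0.16, adjusted p = 0.00875), both called. These calls were lost in 6 of 10 fits without 1 array in males and in 8 of 10 in females, with adjusted p values of at most 0.0144 and 0.0257. The third probe, placed on a predicted transcript variant about 5.8 kb further along, spanned 7.24 to 8.95 on male sham arrays and 6.71 to 8.90 on male CLP arrays. Its differences of -0.40 in males (adjusted p = 0.608) and 0.37 in females (adjusted p = 0.570) did not pass, and its spread within a group was the widest of the 3 probes.

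Grk5, the kinase gene that rose, was also measured by 3 probes, which lay within 5.5 kb on chromosome 1 of rn4, and all 3 were called higher in both sexes, where 3.88% of the 25866 tested probes were called higher in males and 1.82% of 25395 in females. On the main probe the male sham arrays read 8.97, 9.06, 9.13, 9.13 and 8.67, and the male CLP arrays 9.45, 9.56, 10.17, 10.19 and 10.09. The female sham arrays read 8.71, 9.30, 9.07, 9.19 and 8.81, and the female CLP arrays 9.55, 9.605, 9.67, 10.16 and 9.92. No sham array reached the lowest CLP array of its sex on any of the 3 probes. The main probe differed by 0.90 in males (SE 0.15, adjusted p = 0.00108) and by 0.76 in females (SE 0.17, adjusted p = 0.00916). The probe on the curated transcript differed by 1.33 in males (SE 0.20, adjusted p = 0.000414) and 1.24 in females (SE 0.22, adjusted p = 0.00262), and the probe between them by 1.002 (SE 0.15, adjusted p = 0.000286) and 1.07 (SE 0.22, adjusted p = 0.00540).

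The male calls of Grk5 stood for all 3 probes in each of the 10 fits without 1 array. In females the probe on the curated transcript kept its call in all 10 fits, with an adjusted p of at most 0.00876. The female main probe lost it in 9 of 10, all but that without sham array 2, with a difference of 0.67 to 0.83 and an adjusted p of at most 0.0290, and the probe between them lost it in 6 of 10, with an adjusted p of at most 0.0170.

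Some leukocyte markers rose beside Grk5. Of the 5 neutrophil markers, S100a8 was higher by 4.18 in males (adjusted p = 2.69e-05) and 4.15 in females (adjusted p = 0.000190). S100a9 was called in males at 2.50, and its female value was 1.95 (adjusted p = 0.0329). Mpo was well above background on 1 of 32 arrays. Cxcr2 was so on 8 arrays and Csf3r on 4, and like Mpo they were not tested. The summed level of 4 macrophage and monocyte markers ran from 10.71 to 11.34 on male sham and 11.31 to 12.02 on male CLP arrays, and from 10.83 to 11.21 and 11.31 to 11.75 in females, with Cd68 called in both sexes. Cd163 (0.26 in males and 0.47 in females), Csf1r (-0.07 and -0.01) and Itgam (1.53 and 1.27) were not called in either sex. The part of infiltrating cells in the level of Grk5 was not tested.

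**Figure D2:**
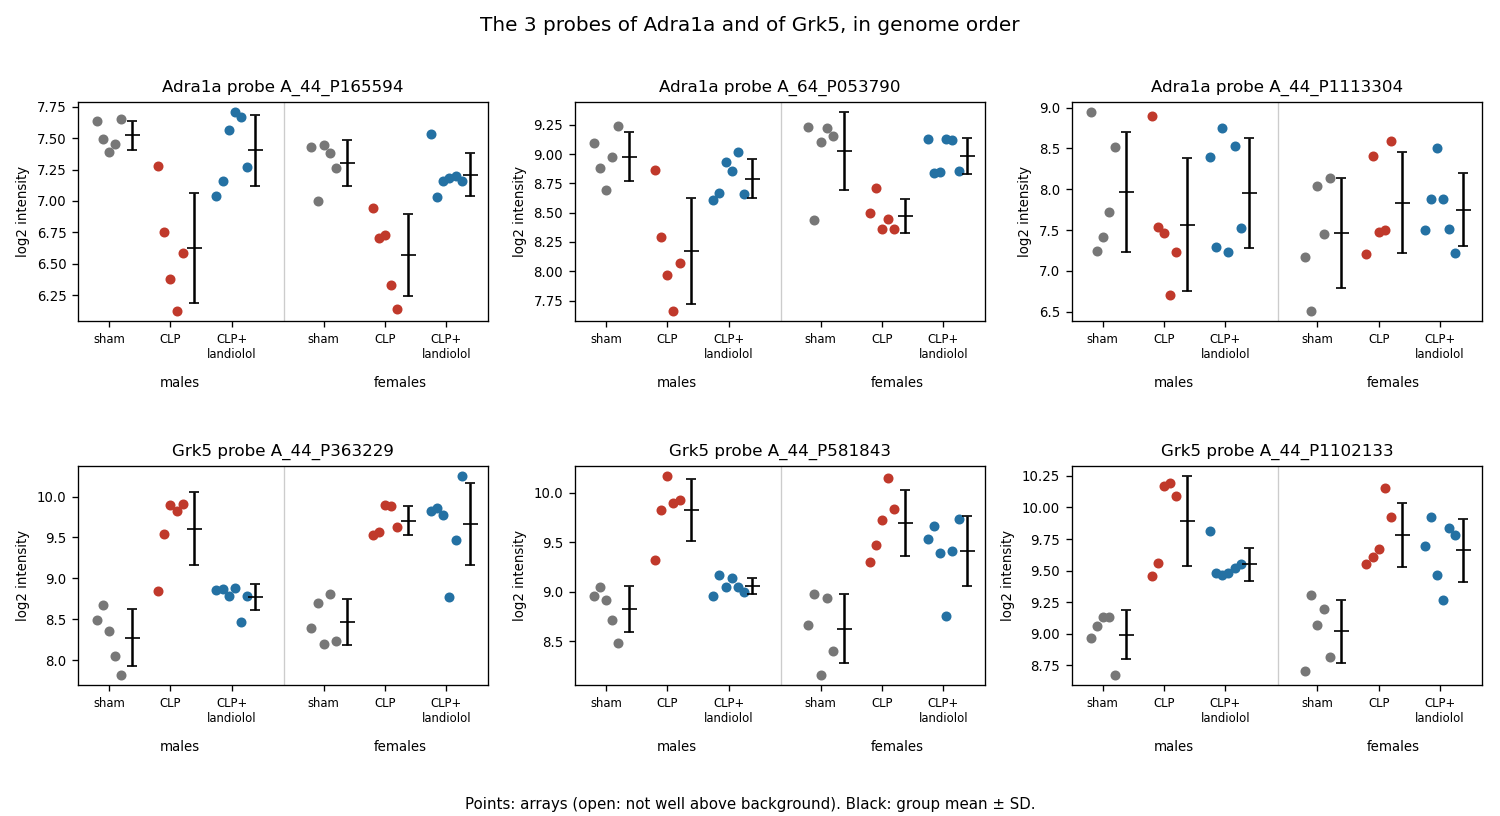
Log2 intensity of the 3 probes of Adra1a (upper row) and of Grk5 (lower row) on the 32 arrays, each row in the order of the probes on the chromosome, with arrays as points and group means with SD in black. The first Adra1a probe lies lower in every CLP array than in every sham array of the same sex. The second has a lower mean in CLP, with overlap between the groups in both sexes. The third also overlaps between the groups, and all 3 Grk5 probes lie higher in CLP.

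The beta receptor genes showed no call. Adrb1 read 6.66, 6.51, 6.22, 6.81 and 6.60 on male sham and 6.30, 6.03, 6.16, 6.37 and 6.49 on male CLP arrays, and 6.75, 5.87, 6.22, 6.28 and 6.25 against 5.84, 6.58, 6.09, 5.81 and 6.17 in females. The groups overlapped in both sexes. The difference was -0.29 in males (95% CI -0.68 to 0.10, adjusted p = 0.328) and -0.18 in females (95% CI -0.62 to 0.26, adjusted p = 0.679), so that the intervals reach down to a fall of 1.61-fold and 1.53-fold. Adrb3, the gene of a beta receptor known from adipose tissue, was well above background on 0 of 32 arrays, with levels from 1.79 to 3.51 in males and 2.04 to 3.47 in females, and it was not tested. Of the 5 adipocyte markers, Adipoq and Plin1 were well above background on 0 of 32 arrays, Lep on 1, Cidec on 6 and Fabp4, which endothelium also expresses, on all 32.

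Adrbk1, which encodes GRK2, stayed within a narrow range. Its level ran from 9.25 to 9.86 on male sham and 9.45 to 9.74 on male CLP arrays, and from 9.15 to 9.55 and 9.38 to 9.52 in females. The difference was 0.05 in males (95% CI -0.20 to 0.30, adjusted p = 0.861) and 0.16 in females (95% CI -0.08 to 0.41, adjusted p = 0.431). An increase above 1.23-fold in males or 1.32-fold in females lies outside these intervals.

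Of the alpha2 receptor genes described here, Adra2a could not be tested and Adra2b was not called. Adra2a, the presynaptic subtype best known from sympathetic nerve endings, was well above background on 1 of 32 arrays, a male sham. Adra2b, the subtype known from vascular smooth muscle, read 8.14, 7.90, 8.16, 7.83 and 8.01 on male sham and 7.77, 7.64, 7.63, 7.75 and 7.61 on male CLP arrays. These did not overlap, yet the difference of -0.33 (SE 0.10, adjusted p = 0.0397) did not pass at 0.01. In females it was -0.07 (SE 0.24, adjusted p = 0.913), with CLP array 2 at 9.37 and the other CLP arrays between 7.90 and 8.25. The second Adra2b probe, tested in females alone, differed by 0.29 (SE 0.34, adjusted p = 0.677).

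**Figure D3:**
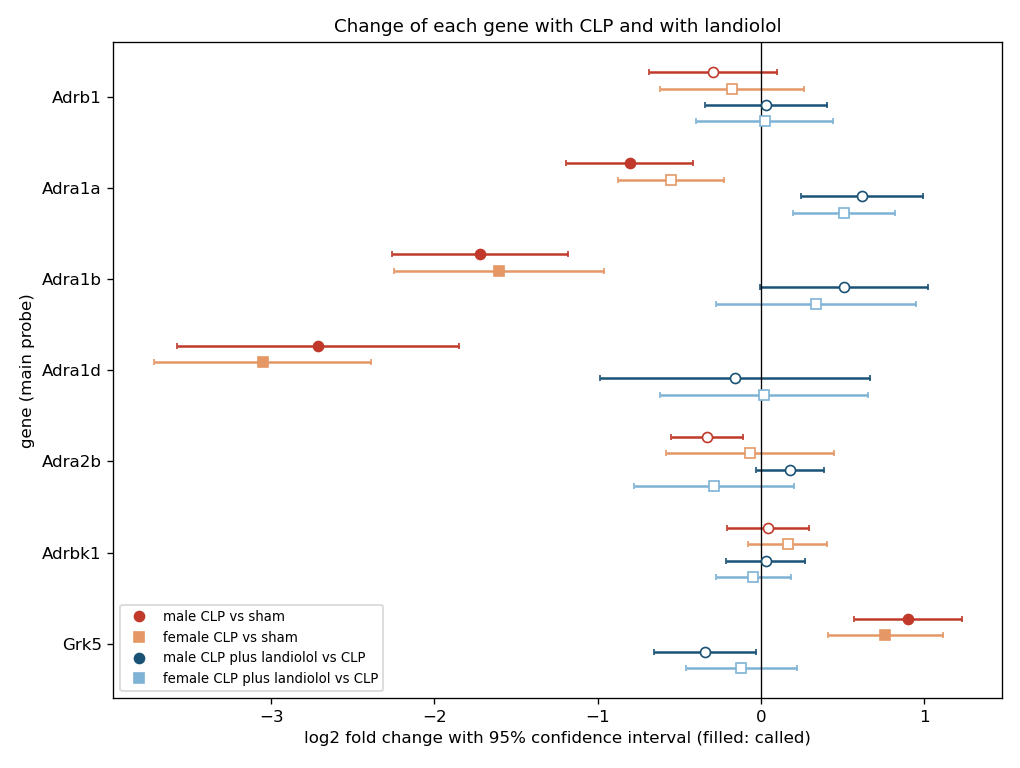
Log2 fold change of the main probe of the 7 tested genes with its 95% confidence interval, for CLP against sham and CLP plus landiolol against CLP in males and females, filled where the gene was called. In CLP against sham the intervals of Adra1a, Adra1b, Adra1d and Grk5 exclude 0 in both sexes, and that of Adra2b does in males. Between CLP plus landiolol and CLP those of Adra1a in both sexes and of Grk5 in males exclude 0, but no marker is filled. The intervals are not adjusted for the number of probes tested.

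Between CLP plus landiolol and CLP, 0 of 7 member genes were called on their main probe in either sex. Of all tested genes, 1.81% were called in males and 0.115% in females. At the level of single probes, males had 3 calls of 11: 1 Adra1a probe was higher and 2 Grk5 probes were lower, where 0.804% of the tested probes were called higher and 0.758% lower. The median log2 fold change over the 7 members was 0.03 in males and 0.02 in females, against 0.01 and 0.04 over all tested genes.

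The upstream Adra1a probe ran from 7.04 to 7.71 with a median of 7.42 on the 6 male CLP plus landiolol arrays, above 4 of the 5 CLP arrays at 6.12 to 6.76 and overlapping the remaining one at 7.28. In females it ran from 7.03 to 7.53 with a median of 7.17, above all CLP arrays, the highest of which was 6.95, where groups did not overlap for 1.40% of the tested genes. The difference was 0.78 in males (SE 0.18, adjusted p = 0.0440) and 0.64 in females (SE 0.15, adjusted p = 0.135), called in males. On the main probe it was 0.62 in males (SE 0.18, adjusted p = 0.0997) and 0.51 in females (SE 0.15, adjusted p = 0.223). Against sham, CLP plus landiolol differed on the main probe by -0.19 in males (95% CI -0.56 to 0.19, adjusted p = 0.557) and -0.04 in females (95% CI -0.35 to 0.27, adjusted p = 0.898). The male call on the upstream probe was lost in 9 of the 11 fits without 1 array, all but those without CLP array 1 or CLP plus landiolol array 1, where the difference stayed between 0.65 and 0.94 and the adjusted p reached 0.136. Without male CLP array 1, the main probe differed by 0.79 with an adjusted p of 0.00777.

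The middle Grk5 probe ran from 8.96 to 9.17 with a median of 9.05 on the male CLP plus landiolol arrays, below every male CLP array, the lowest of which was 9.32. It differed from CLP by -0.77 (SE 0.14, adjusted p = 0.0126), a 1.70-fold fall, and this call stood in each of the 11 fits without 1 array. Groups did not overlap for 2.68% of the tested genes in this comparison. The probe on the curated transcript ran from 8.46 to 8.88 with a median of 8.82, and its difference of -0.83 (SE 0.19, adjusted p = 0.0435) lost the call in 10 of 11 such fits, all but that without CLP array 1, with an adjusted p of at most 0.136. The main probe ran from 9.47 to 9.81 with a median of 9.50, inside the range of the CLP arrays, and its difference was -0.34 (SE 0.15, adjusted p = 0.293). The 3 probes thus gave 2 calls and 1 value that missed the threshold.

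In females the 3 Grk5 probes differed from CLP by -0.12, -0.04 and -0.28 (main, curated and middle, adjusted p = 0.883, 0.978 and 0.725). Their CLP plus landiolol arrays ran from 9.27 to 9.92, 8.78 to 10.25 and 8.75 to 9.73. The landiolol difference on the curated probe was 0.78 larger in females than in males (SE 0.29, 95% CI 0.18 to 1.37, unadjusted p = 0.0126), and it was not called after adjustment (adjusted p = 0.972). No member probe was called for a difference between the sexes, in CLP against sham or in CLP plus landiolol against CLP. Over all 24769 probes tested in both sexes, limma called 0, or 0%, in each of these, with 867 and 1217 at an unadjusted p below 0.05.

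No other receptor gene was called under landiolol. Adra1b ran from 11.57 to 12.57 with a median of 12.31 in males and from 11.06 to 12.70 with a median of 11.82 in females, and differed from CLP by 0.51 (95% CI -0.01 to 1.02, adjusted p = 0.347) and 0.34 (95% CI -0.27 to 0.95, adjusted p = 0.774). Adra1d ran from 6.08 to 7.14 and from 4.61 to 6.38, and differed by -0.16 (95% CI -0.99 to 0.67, adjusted p = 0.866) and 0.02 (95% CI -0.62 to 0.66, adjusted p = 0.996). Adrb1, whose product landiolol blocks, differed by 0.03 (95% CI -0.34 to 0.41, adjusted p = 0.941) in males and 0.02 (95% CI -0.40 to 0.44, adjusted p = 0.989) in females. For Adrbk1 the differences were 0.03 and -0.05, and for the main Adra2b probe 0.18 and -0.29, and none passed.

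Against sham, the CLP plus landiolol rats share the sham arrays with the CLP comparison, so the values are given side by side only. Here 2 of 7 members, Adra1b and Adra1d, were called lower in each sex, where 2.30% of the tested genes were called lower in males and 2.63% in females. Adra1d differed by -2.87 in males (SE 0.39, adjusted p = 0.000284) and -3.04 in females (SE 0.30, adjusted p = 2.43e-05), and neither call was lost in any of the 11 fits without 1 array. Adra1b differed by -1.22 in males (SE 0.24, adjusted p = 0.00485) and -1.26 in females (SE 0.29, adjusted p = 0.00932). These calls were lost in 5 of 11 and 9 of 11 such fits, with a male difference of -1.35 to -1.10 (adjusted p at most 0.0170) and a female difference of -1.43 to -1.10 (adjusted p at most 0.0289). The main Grk5 probe differed by 0.56 in males (SE 0.15, adjusted p = 0.0258) and 0.64 in females (SE 0.16, adjusted p = 0.0155), neither called, and the curated Grk5 probe by 0.50 (SE 0.19, adjusted p = 0.121) and by 1.20 (SE 0.21, adjusted p = 0.00190), called in females.

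**Figure D4:**
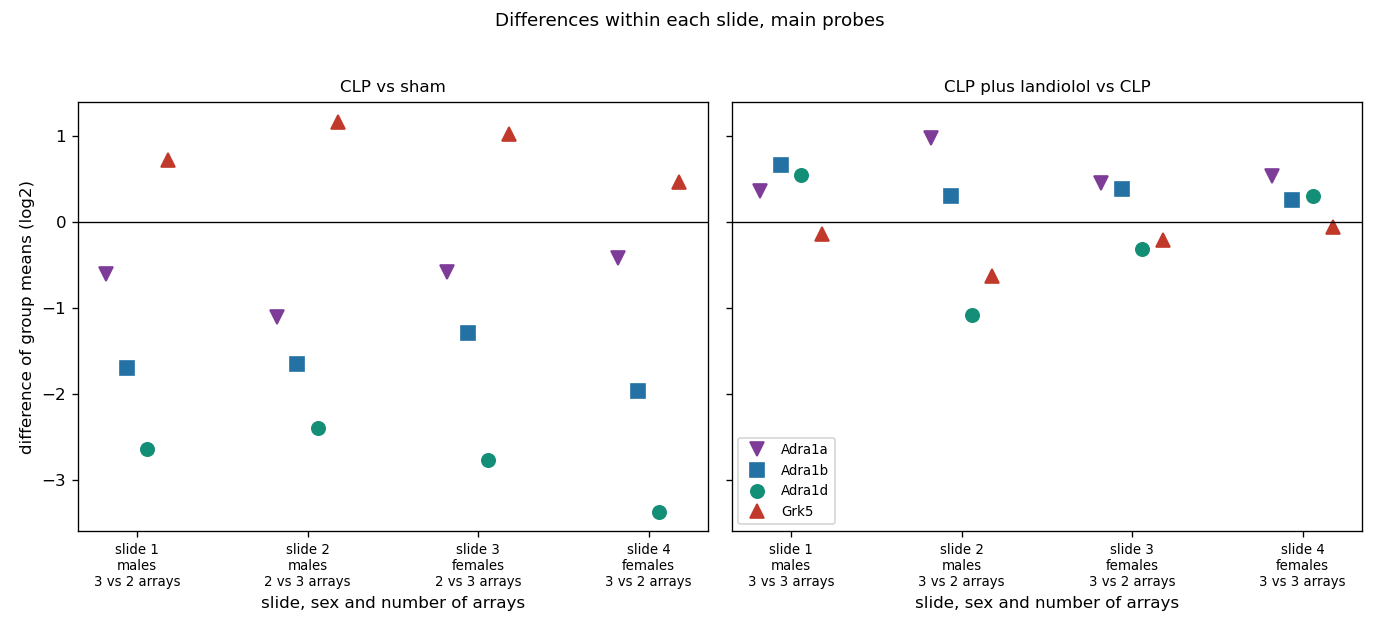
Differences of group means on the log2 scale within each of the 4 slides for the main probes of Adra1a, Adra1b, Adra1d and Grk5, for CLP against sham (left) and CLP plus landiolol against CLP (right), with the number of arrays under each slide. On the left the 3 receptor genes lie below 0 and Grk5 above 0 on all 4 slides, and on the right Adra1d lies on both sides of 0.

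Each slide held arrays of all 3 groups of its sex, so the differences could be taken within slides. Adra1d differed between CLP and sham by -2.64 and -2.39 on the male slides and by -2.76 and -3.36 on the female slides, and Adra1b by -1.69, -1.66, -1.29 and -1.96. Adra1a differed on its main probe by -0.61, -1.10, -0.58 and -0.42, and Grk5 by 0.71, 1.16, 1.02 and 0.47. The sign was the same on all 4 slides for each of these genes. With row of the slide as a term, the female differences in CLP against sham were -1.35 for Adra1b (adjusted p = 0.0321) and 0.59 for the main Grk5 probe (adjusted p = 0.0765), no longer called, while Adra1d kept its call. The curated and middle Grk5 probes gave 1.20 and 0.87 there (adjusted p = 0.0184 and 0.0485) and the upstream Adra1a probe -0.51 (adjusted p = 0.0703), so these calls were lost too. In males the term ended the call of the main Adra1a probe in CLP against sham (-0.82, adjusted p = 0.0106), and between CLP plus landiolol and CLP those of the upstream Adra1a probe (0.78, adjusted p = 0.0611) and the curated Grk5 probe (-0.83, adjusted p = 0.0640). In CLP plus landiolol against sham, where the female groups lay in different rows throughout, the term left Adra1b at -0.63 (adjusted p = 0.755), Adra1d at -2.42 (adjusted p = 0.0741) and the curated Grk5 probe at 1.10 (adjusted p = 0.343), none of them called.

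Genes around these receptors were taken from 5 lists: kinases, arrestins and RGS proteins that end receptor signals, G protein subunits, effectors of Gq, effectors of beta receptors, and genes of catecholamine synthesis, transport and breakdown. In CLP against sham, 3 of 66 tested genes of these lists were higher and 7 lower in males, and 2 of 64 were higher and 4 lower in females, where 9.34% and 4.30% of all tested genes were called. Their median log2 fold change was -0.09 in males and -0.11 in females, against -0.02 over all tested genes in each sex.

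Among the genes that end receptor signals, Grk3, a kinase close to GRK2, rose by 1.85 in males (SE 0.32, adjusted p = 0.00102) and 1.73 in females (SE 0.34, adjusted p = 0.00463). Grk4 and Grk6 were not called in either sex. Rgs4 and Rgs5, which speed the shutdown of G proteins of the Gq and Gi types, were called lower in females (-1.03 and -0.91), and in males their values were -0.81 (adjusted p = 0.0123) and -0.69 (adjusted p = 0.0201). The arrestin gene Arrb2 gave 0.56 in males and 0.50 in females, neither called, and was called higher in CLP plus landiolol against sham at 0.80 and 0.78. Arrb1 was called in no comparison.

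Downstream of the alpha1 receptors, Plcb1, a phospholipase C that Gq activates, differed by -1.12 in males (SE 0.16, adjusted p = 0.000263) and by -1.51 in females (SE 0.19, adjusted p = 0.000180). Plcb3, another such phospholipase, rose by 0.58 and 0.63, both called. Prkca and Prkce, protein kinase C genes, were called lower in males at -0.90 each. Of the G protein subunits, Gnai3 was called higher (0.73) and Gnb5 lower (-0.66) in males. In females 0 of 16 were called, where 4.30% of all tested genes were called. Gna12 was called lower in CLP plus landiolol against sham in females (-0.93).

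Downstream of the beta receptors, Akap6, which anchors protein kinase A in cardiomyocytes, differed by -1.12 in males (SE 0.13, adjusted p = 5.004e-05) and by -1.19 in females (SE 0.16, adjusted p = 0.000353). It was then higher in CLP plus landiolol than in CLP by 0.57 in males (SE 0.12, adjusted p = 0.0295), and by 0.82 in females (SE 0.16, adjusted p = 0.0596), which did not pass. Adcy7, an adenylyl cyclase, and Prkaca, the catalytic subunit of protein kinase A, were called lower in males at -1.07 and -0.45. In females 1 of 18 tested effectors of the beta receptors was called, which was Akap6, where 4.30% of all tested genes were called.

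Of the catecholamine genes, 0 of 10 were called in CLP against sham in either sex. Of all tested genes, 9.34% were called in males and 4.30% in females, so a count of 0 in 10 lies near the share over all genes. Dbh, the enzyme that makes noradrenaline from dopamine, was called lower in CLP plus landiolol than in CLP in males (-0.94, SE 0.17, adjusted p = 0.0113), and its female value was -0.76 (SE 0.30, adjusted p = 0.421). Slc22a3, a transporter that clears catecholamines from the extracellular space, was called lower in CLP plus landiolol than in sham, at -1.92 in males and -2.51 in females. Neither CLP against sham nor CLP plus landiolol against CLP gave a call of Slc22a3 in either sex. Slc6a2, the noradrenaline transporter of sympathetic nerves, was well above background on 1 of 32 arrays and was not tested.

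**Figure D5:**
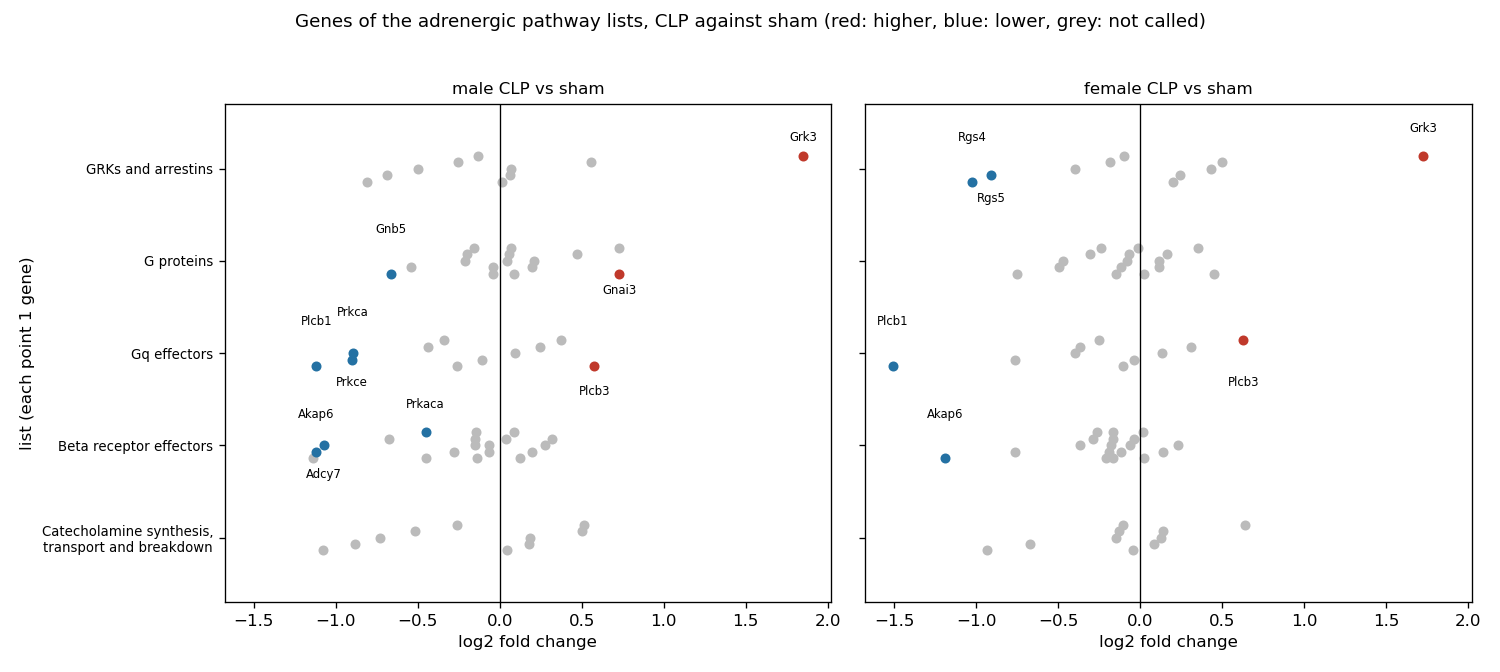
Log2 fold change in CLP against sham of each tested gene of the 5 pathway lists, males left and females right, red where called higher, blue where called lower and grey where not called. Grk3 stands furthest to the right in both sexes, and Plcb1 and Akap6 are called lower in both.

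For each member, the genes whose level followed it most closely were sought among 12898 genes over the 32 arrays, after the mean of each sex was subtracted. The correlations include the differences between groups and are given as a description. For Adra1b the closest were Nceh1, a cholesterol ester hydrolase (r = 0.92), Perm1, a muscle regulator of mitochondrial genes (r = 0.92), and Nmrk2, a nicotinamide riboside kinase of muscle (r = 0.92). Those of Adra1d were Slc35a4, Alas1, the first enzyme of haem synthesis, and Mtfp1, a protein of mitochondrial fission (r = 0.92, 0.91 and 0.91). Those of Adra1a were St5, Tfdp2 and Vipr1, a receptor of vasoactive intestinal peptide (r = 0.87, 0.85 and 0.84).

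Grk5 was followed most closely by Fhdc1, Slc39a1, a zinc transporter, and Net1 (r = 0.90, 0.89 and 0.88). The genes that showed no call had Myo18a, Fam160b2 and Myo1c for Adrb1 (r = 0.71, 0.67 and 0.65), Tmc6, Tet3 and Acap3 for Adrbk1 (r = 0.83, 0.81 and 0.81), and Scamp5, Rasgrf1 and Trim26 for Adra2b (r = 0.90, 0.89 and 0.88). The r values of Adrb1 were the lowest of the 7 genes.

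The stretch of 250 bases before the start of the gene was available from RefSeq, on the GRCr8 build, for 7 of the 9 members. It is printed for Adra1b and Adra1d, which fell together, for Grk5, which rose, and for Adrb1, which showed no call. The letters searched, on both strands, were TGACG, a core of the cyclic AMP response element, TTCNNNGAA, the site of STAT factors, and GGGCGG, the GC box, and matches are in capitals. They do not overlap each other in these windows. The windows lie at chr10:28814348-28814597 (Adra1b, minus strand), chr3:139262332-139262581 (Adra1d, minus strand), chr1:270014086-270014335 (Grk5, plus strand), chr1:265776853-265777102 (Adrb1, plus strand).
Adra1b: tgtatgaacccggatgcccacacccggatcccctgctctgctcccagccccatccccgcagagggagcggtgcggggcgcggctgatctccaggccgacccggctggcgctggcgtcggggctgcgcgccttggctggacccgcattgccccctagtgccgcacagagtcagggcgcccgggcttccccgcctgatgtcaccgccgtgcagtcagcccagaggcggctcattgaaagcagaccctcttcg
Adra1d: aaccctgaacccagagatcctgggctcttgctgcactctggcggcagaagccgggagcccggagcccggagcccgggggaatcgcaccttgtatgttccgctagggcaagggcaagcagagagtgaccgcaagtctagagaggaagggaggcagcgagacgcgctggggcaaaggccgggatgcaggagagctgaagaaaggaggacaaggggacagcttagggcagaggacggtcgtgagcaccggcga
Grk5: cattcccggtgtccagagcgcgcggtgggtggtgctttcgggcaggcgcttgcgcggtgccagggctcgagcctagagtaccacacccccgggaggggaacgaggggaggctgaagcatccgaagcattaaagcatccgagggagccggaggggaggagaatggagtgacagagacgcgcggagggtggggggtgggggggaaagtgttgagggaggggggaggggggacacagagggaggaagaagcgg
Adrb1: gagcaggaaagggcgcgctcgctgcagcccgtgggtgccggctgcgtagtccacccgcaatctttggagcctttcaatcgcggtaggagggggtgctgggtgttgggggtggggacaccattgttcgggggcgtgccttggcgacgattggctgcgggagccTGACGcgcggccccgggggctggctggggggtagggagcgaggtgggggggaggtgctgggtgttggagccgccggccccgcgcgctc

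The Adrb1 window held 1 match, of TGACG, 88 bases before the start, and the other 3 windows held none of the 3 motifs. Of 33469 windows of the same length in the table, 18.2% held TGACG, 7.67% TTCNNNGAA and 30.5% GGGCGG. The windows were rich in G and C, at 70.8% for Adra1b, 64.0% for Adra1d, 67.2% for Grk5 and 72.0% for Adrb1, against a median of 51.2% over all windows.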

How the data were processed

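The RNA of 32 rat left ventricles was measured on single-colour Agilent arrays of 60-base probes. The authors scanned the arrays with Agilent Feature Extraction 10.5 and deposited, per array, spot intensity values that the scanner software had corrected for background (processed signal), with flags for spots well above background, saturated or outlying. They also deposited a table of log2 values, already normalised and filtered, which is used here as an alternative. The extraction protocol was named GE1_107_Sep09 on slide 3, which held females, and GE1_105_Dec08 on the other slides.

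From the intensities, log2 was taken, outlier-flagged spots were left out (213 missing probe values), spots of a probe were averaged, and arrays were quantile-normalised within each sex. Probes kept numbered 25866 in males and 25395 in females. The groups of a sex were fitted together with limma 3.58.1 in R 4.3.3, with Benjamini-Hochberg adjustment over all kept probes. This replaces the significance analysis of microarrays that the study used, and keeps its thresholds of 1% against sham and 5% for landiolol. Differences between sexes were tested as interactions on the 24769 probes kept in both. The procedure was tested on simulated data, with a shift planted in 200 probes between CLP and sham of each sex. It called 0% of these probes in either sex at a shift of 0.5 log2. At a shift of 1 it called 39.5% in males and 31.5% in females, and at 2 it called 84.5% and 87.5%. Changes of 2-fold or less can thus go uncalled. Array numbers within a group only name the rats and pair nothing.

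The named genes were all 9 members with every probe, up to 4 called genes with the largest change per pathway list and comparison, and the 3 genes that correlated best with each member. The members and lists were chosen with earlier results of these data known. Alternatives changed the scaling, background correction, filter, groups fitted, prior, array weights, slide, row, table, probe choice and threshold, and left out each array in turn. Promoter windows and gene names came from RefSeq. Probe positions are those of the array's rn4 annotation.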

Additional observations from a re-analysis of the deposited data

Results flagged for a closer look

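Of 69 sets of values of a member probe in 1 group, 6 held an array far from the others, and chance alone marks about 1 in 20 such sets. On the main Adra1a probe, female sham array 2 was lowest at 8.43, with the next array at 9.10. On the upstream Adra1a probe, female CLP plus landiolol array 1 was highest at 7.53, with the next at 7.20. On the main Adra2b probe, female CLP array 2 was highest at 9.37, with the next at 8.25. On the main Grk5 probe, male CLP plus landiolol array 1 was highest at 9.81, with the next at 9.55. On the Grk5 probe of the curated transcript, male CLP plus landiolol array 5 was lowest at 8.46, with the next at 8.79. On the middle Grk5 probe, female CLP plus landiolol array 4 was lowest at 8.75, with the next at 9.39.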

How the results depend on the processing

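The precision is limited by 5 or 6 arrays per group, by signal over background for Adrb3 (well above it on 0 of 32 arrays) and Adra2a (1 of 32), and by the female groups lying in different rows of the slides. Of the differences of single member probes under alternatives other than leaving out an array, 761 kept direction and side of the threshold, 41 lost a call, 10 gained one and 13 changed sign. Calls of member genes in CLP against sham in males stayed within 1.5 times the reported 4 under every alternative. The difference between the sexes was tested again under 4 alternatives only: 75th-percentile scaling, normexp, slide as a term and row as a term. It was also tested without each array in turn. In all of these fits 0 members were called. In CLP plus landiolol against sham in females, the 2 member calls became 1 with 75th-percentile scaling, with normexp, with no filter, with the 2 groups compared alone and with slide as a term, and 0 with row as a term. The 2 male calls there became 1 with no filter. Row as a term left 1 of 3 female calls in CLP against sham. In CLP plus landiolol against CLP in males, the 0 calls became 1 with array weights and 2 when any probe of a gene could call it. With the thresholds of 1% and 5% exchanged, pathway calls in males went from 2 to 0 for CLP plus landiolol against CLP and from 4 to 9 against sham, and in females from 6 to 11 against sham. The cause of these shifts was not tested.

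Leaving out 1 array at a time, member calls ran from 1 to 2 in CLP plus landiolol against sham in males, from 0 to 1 in CLP plus landiolol against CLP in males, from 1 to 4 in CLP against sham in females, and from 1 to 3 in CLP plus landiolol against sham in females. Pathway calls ran from 6 to 11 in CLP against sham in males, from 1 to 6 in each male landiolol comparison, and in females from 3 to 6 in CLP against sham, from 0 to 1 in CLP plus landiolol against CLP and from 4 to 6 against sham.

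No difference that changed sign was called, and the cause was not tested. In CLP plus landiolol against CLP in females, Adrb1 was -0.034 and Adra1d -0.085 with 75th-percentile scaling, and the third Adra1a probe 0.13 and Adra1d -0.25 with array weights. With array weights in males, Adrb1 was -0.030 in that comparison and the third Adra1a probe 0.026 against sham. Adra2b in CLP against sham in females was 0.0029 with slide and 0.069 with row as a term. In CLP plus landiolol against sham in females, the main Adra1a probe was 0.0034 with normexp, and with row as a term Adrb1 was 0.023, the upstream Adra1a probe 0.47, the third -0.056 and the main 0.078. Without 1 array, in males, Adrbk1 ran from -0.033 to 0.12 in CLP against sham, from -0.0044 to 0.15 in CLP plus landiolol against sham and from -0.015 to 0.060 against CLP. The third Adra1a probe ran from -0.20 to 0.23 in CLP plus landiolol against sham, and against CLP Adrb1 ran from -0.079 to 0.15 and Adra1d from -0.37 to 0.21. In females, Adra2b ran from -0.34 to 0.049 in CLP against sham and the main Adra1a probe from -0.19 to 0.0094 in CLP plus landiolol against sham. In females against CLP, Adrb1 ran from -0.084 to 0.14, the third Adra1a probe from -0.24 to 0.10, Adra1d from -0.16 to 0.23 and the curated Grk5 probe from -0.16 to 0.13. No paired analysis was possible because the array numbers follow accession order and the labels pair no rats.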
